A study of Mus musculus with 41 samples.

Results

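The Hox genes encode homeodomain transcription factors that give cells their position along the body axis, and the members described here are all rows of the mouse lesion count table whose symbol is Hoxa, Hoxb, Hoxc or Hoxd followed by a number. The rule found 31 of the 21249 genes in the table, out of 39 such genes in the GENCODE annotation of the GRCm38 genome. The HOXA cluster (chromosome 6, positions 52155590 to 52260880, minus strand) gave 10 of 11 annotated genes, and the HOXB cluster (chromosome 11, positions 96194316 to 96368256, plus strand) gave 8 of 10. The HOXC cluster (chromosome 15, positions 102921103 to 103036852, plus strand) gave 7 of 9, and the HOXD cluster (chromosome 2, positions 74668310 to 74765142, plus strand) gave 6 of 9. Hoxa13, Hoxb1, Hoxb13, Hoxc12, Hoxc13, Hoxd1, Hoxd12 and Hoxd13 were not analysed here.

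The libraries came from endometriosis-like lesions, made by gluing a 4 mm punch of donor uterus to the inner peritoneal wall of a recipient mouse aged 12 to 16 weeks, so that uterine tissue and abdominal wall met in 1 specimen. Starting 7 days later, mice received 3 intraperitoneal injections over 6 days of either 1 µg of IL-33, a cytokine that activates group 2 innate lymphoid cells (ILC2s), or PBS. Bulk RNA of 41 frozen lesions in 11 groups was sequenced. No library of uterus alone or of abdominal wall alone is among them, and the labels give neither the sex of the mice nor whether replicates came from separate animals, so that p-values measure the spread between these lesions only.

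ILC2-deficient mice were Nmur1iCre-eGFP Id2fl/fl, in which Cre recombinase under the ILC2-associated gene Nmur1 deletes Id2, a gene that ILC2s need. They received 120000 transferred ILC2s and IL-33 (2 libraries), IL-33 alone (4 libraries), or 250000 ILC2s and IL-33 (4 libraries). The mice with 120000 ILC2s were set against the deficient mice with IL-33 alone, those with 250000 ILC2s against deficient mice given IL-33 and added PBS (4 libraries), and IL-33 alone against deficient mice given PBS alone (4 libraries). In the lesion transfer, Nmur1iCre-eGFP fragments were grown in deficient recipients (4 libraries) and deficient fragments in Nmur1iCre-eGFP recipients (4 libraries), all with IL-33. The ILC2-competent groups, all with IL-33, were wild-type C57Bl/6J mice given 120000 ILC2s (3 libraries), Nmur1iCre-eGFP controls (4 libraries), Id2fl/fl floxed controls (4 libraries) and C57Bl/6J mice with no transfer (4 libraries), to which the wild-type mice with 120000 ILC2s were compared. Outside the lesion transfer the labels give the genotype of the fragment, and the recipient was taken to share it.

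Hox genes lie in 4 clusters in which gene order follows the place along the body axis where each gene is used, from anterior (low paralogue numbers) to posterior (high paralogue numbers). In the Müllerian duct, from which the female tract forms, Hoxa9 marks the future oviduct, Hoxa10 the uterus and Hoxa11 the lower uterus and cervix, and mice without Hoxa10 or Hoxa11 have defects of implantation and of the uterine stroma. Trunk body wall keeps a code of its own that includes HOXC members, in dermis, muscle connective tissue and other mesenchyme. Krt8, a keratin of simple epithelia, served as the measure of epithelium, and Acta1, skeletal muscle actin, as the measure of body wall muscle.

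The bases upstream of the posterior members whose levels moved together are shown first, because no peak or methylation data accompany these libraries and sequence is the other view of these members. RefSeq (GRCm38.p6) held a promoter for 17 of the 31 members. For Hoxa10 and for Hoxd11 it held 2, and only the promoter nearest the start of the principal GENCODE transcript was searched. The windows are the 250 bases before the start, 5′ to 3′ on the strand of the gene, at chr6:52234940-52235189 (minus) for Hoxa10, chr6:52227371-52227620 (minus) for Hoxa9, chr6:52245811-52246060 (minus) for Hoxa11, chr2:74691641-74691890 (plus) for Hoxd10 and chr2:74682073-74682322 (plus) for Hoxd11. Capitals mark matches, on either strand, to any of 6 short motifs, which are given after the sequences.
Hoxa9: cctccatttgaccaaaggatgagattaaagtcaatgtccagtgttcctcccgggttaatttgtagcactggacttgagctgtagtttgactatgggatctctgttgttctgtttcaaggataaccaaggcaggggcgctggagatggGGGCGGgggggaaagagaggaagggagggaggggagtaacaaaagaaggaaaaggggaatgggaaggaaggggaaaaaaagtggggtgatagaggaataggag
Hoxa10: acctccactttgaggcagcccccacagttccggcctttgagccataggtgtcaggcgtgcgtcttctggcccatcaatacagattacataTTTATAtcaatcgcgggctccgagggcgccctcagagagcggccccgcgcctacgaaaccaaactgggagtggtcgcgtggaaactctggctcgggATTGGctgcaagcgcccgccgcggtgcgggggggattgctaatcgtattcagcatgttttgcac
Hoxa11: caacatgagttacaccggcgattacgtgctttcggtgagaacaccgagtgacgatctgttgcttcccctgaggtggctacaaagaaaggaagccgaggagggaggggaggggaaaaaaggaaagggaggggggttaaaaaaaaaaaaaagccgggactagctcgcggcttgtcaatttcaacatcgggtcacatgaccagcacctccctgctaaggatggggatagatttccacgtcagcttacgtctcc
Hoxd10: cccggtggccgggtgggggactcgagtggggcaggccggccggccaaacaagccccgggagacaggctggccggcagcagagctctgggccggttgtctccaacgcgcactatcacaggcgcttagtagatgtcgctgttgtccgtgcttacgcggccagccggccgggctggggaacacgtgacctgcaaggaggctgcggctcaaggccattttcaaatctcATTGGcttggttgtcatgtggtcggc
Hoxd11: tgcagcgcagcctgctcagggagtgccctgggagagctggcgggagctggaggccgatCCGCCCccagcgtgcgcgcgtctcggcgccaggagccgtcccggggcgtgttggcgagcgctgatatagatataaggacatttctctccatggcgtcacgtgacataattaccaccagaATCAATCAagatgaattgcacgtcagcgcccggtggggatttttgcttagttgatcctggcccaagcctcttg
The Hoxa9 window held a GC box on the forward strand. The Hoxa10 window held a TATAAA match on the reverse strand, and both Hoxa10 and Hoxd10 held a reverse CCAAT. Hoxd11 held a reverse GC box and a reverse PBX-HOX match, and the Hoxa11 window held none of the 6. The TATA box was searched as TATAAA, which 12.4% of 32851 promoter windows of the same length held. The CCAAT box was searched by the letters of its name, found in 33.8% of windows, and the GC box as GGGCGG, found in 32.7%. The PBX-HOX site, bound by Hox proteins with their PBX partners, was searched as TGATTNAT and found in 2.82%. The site of CDX factors, which switch on Hox genes in the embryo, was searched as TTTATG and found in 10.8%, and the palindromic estrogen response element, given here by name alone, was found in 0.0639%. No 2 of the marked matches overlapped. The median GC content was 58.0% over the 17 Hox windows and 52.4% over all windows, and the median ratio of observed to expected CpG was 0.755 over the Hox windows and 0.373 over all. These matches describe letters only.

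Library totals ran from 28884926 to 70526624 counts (median 42906356), and no Hox member was at 0 in any library. Tissue content varied widely between lesions: Krt8 ran from 1.21 to 245 CPM (counts scaled to the library total), and Acta1 from 30.2 to 11394 CPM. In 4 libraries Krt8 was under 2 CPM, against at least 3.43 CPM in the other 37: floxed-control replicate 3 (1.54 CPM), Cre fragment in deficient recipient replicate 1 (1.39 CPM), and added-PBS replicates 1 and 2 (1.21 and 1.91 CPM). Their 12 epithelial markers summed to 17.0 to 28.9 CPM, against 38.7 to 2519 CPM in the other 37, and Myh11, a smooth muscle myosin that is abundant in the uterine wall, reached 67.7 to 130 CPM, against 182 to 4212 CPM. In 4 further libraries liver transcripts were high, among them wild-type replicate 4 and replicate 3 of the wild-type mice given 120000 ILC2s, where Alb, the serum albumin gene of hepatocytes, reached 33200 and 60045 CPM. The others were Cre-control replicate 3 (34959 CPM) and deficient IL-33 replicate 2 (16099 CPM). Krt8 stood at 46.9 to 121 CPM in these, and hepatocytes make Krt8 too.

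Per kilobase of annotated exon, so that genes can be compared, Hoxa10 was the highest member with a mean of 12.4 CPM per kb over the 41 libraries. Hoxc6 followed at 8.79, Hoxb6 at 7.84, Hoxd8 at 7.70, Hoxa11 at 7.69, Hoxd10 at 7.17 and Hoxd9 at 6.52 CPM per kb. So the 7 highest members included 4 of the 6 measured posterior members of HOXA and HOXD, beside trunk members from HOXB, HOXC and the middle of HOXD. Among the lowest was Hoxc11 at 0.409 CPM per kb, which rests on 1442 counts over all libraries. Neighbours in this order lay far within their spread over libraries, as the wide ranges in the plot of length-scaled levels show.

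**Figure D1:**
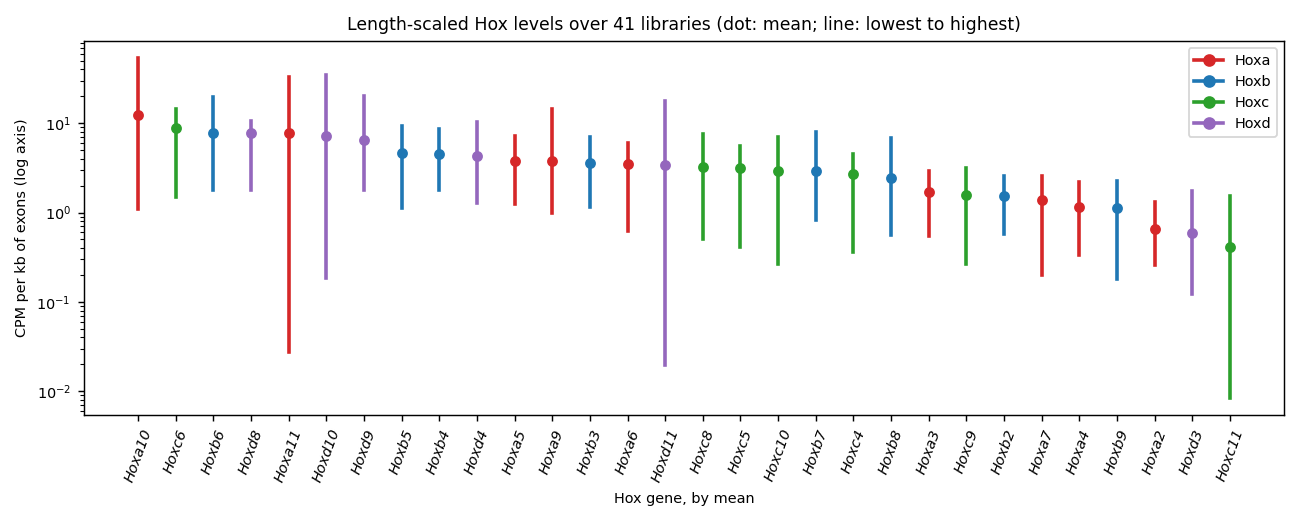
Mean (dot) and lowest to highest value (line) over 41 libraries of each of 30 Hox members, in CPM per kb of exons on a log axis, ordered by mean and coloured by cluster. Hoxa10 leads at 12.4 CPM per kb, and Hoxa11, Hoxd10, Hoxd11 and Hoxc11 have the longest lines.

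The members differed most in how far they varied between lesions. Hoxa11 spanned 0.0624 to 74.9 CPM (median 17.4), Hoxd11 0.0832 to 75.5 CPM (median 12.8) and Hoxd10 0.333 to 63.4 CPM (median 10.8). Their lowest values all fell in replicate 1 of the Cre fragments in deficient recipients, on 3, 4 and 16 counts, and their highest in replicate 4 of the deficient mice given 250000 ILC2s. Hoxa10, whose product the uterine stroma needs to respond to progesterone, spanned 49.2-fold between the same pair of libraries (3.60 and 177 CPM). Hoxa9 spanned 5.50 to 80.0 CPM and Hoxd9 3.81 to 43.2 CPM. Those of Hoxa9 and Hoxd9 were spans of 14.5-fold and 11.3-fold. Members from the anterior and middle parts of the clusters spanned less or about as much. Hoxa5, Hoxd8 and Hoxa3 spanned 5.79-fold, 5.90-fold and 5.24-fold, but Hoxd3, Hoxa7 and Hoxb8 spanned 14.3-fold, 12.6-fold and 12.3-fold.

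Hoxd11, a posterior member also used in limb and urogenital development, shows the pattern library by library. It stood at 20.3 and 12.8 CPM in deficient lesions with 120000 ILC2s, at 13.4, 22.9, 9.51 and 21.0 CPM in deficient lesions with IL-33, and at 31.8, 25.3, 8.95 and 19.6 CPM in deficient lesions with PBS alone. In deficient mice it was at 12.8, 4.44, 0.643 and 75.5 CPM with 250000 ILC2s, and at 1.97, 1.32, 21.2 and 8.80 CPM with added PBS. Both of the last 2 groups held lesions near 1 CPM beside lesions above 8 CPM. In the lesion transfer it was at 0.0832, 9.74, 16.2 and 23.8 CPM for Cre fragments in deficient recipients, and at 0.805, 2.67, 8.62 and 20.8 CPM for deficient fragments in Cre recipients. Cre controls held 12.0, 18.1, 17.1 and 10.7 CPM and floxed controls 28.7, 13.4, 0.156 and 13.1 CPM. Wild-type lesions held 7.46, 23.3 and 4.29 CPM with 120000 ILC2s and 4.11, 19.5, 20.4 and 7.14 CPM without. All 11 groups overlapped with others, and values under 1 CPM occurred in single lesions of 4 groups.

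**Figure D2:**
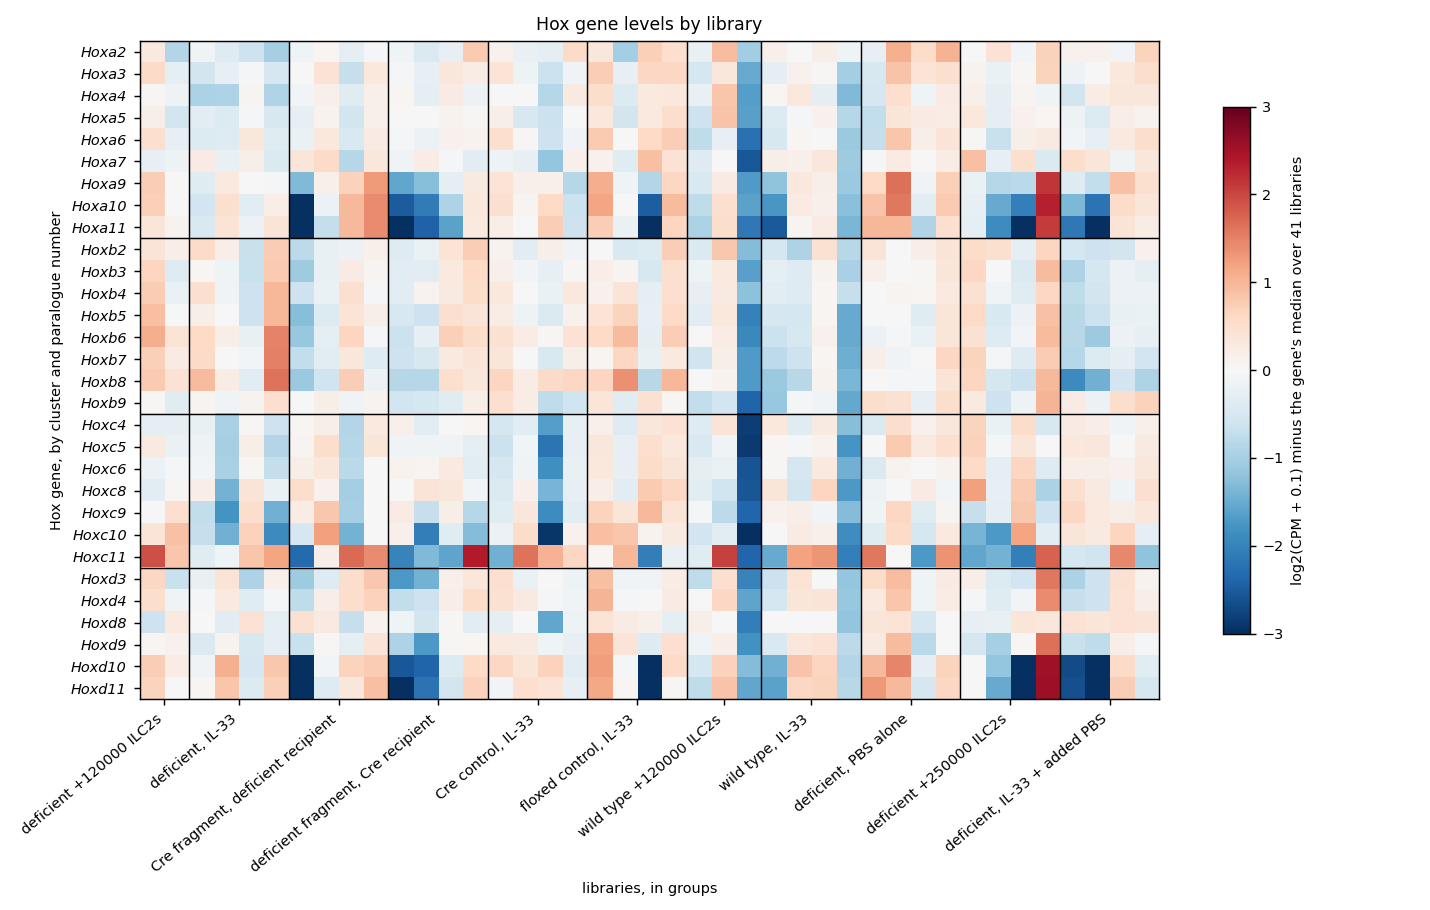
Level of each of 30 Hox members (rows, by cluster and paralogue number) in each of 41 libraries (columns, by group), as log2(CPM + 0.1) minus the median of that gene, with the colour scale ending at 3 either way. Hoxa9 to Hoxa11, Hoxd10 and Hoxd11 are low together in single libraries of several groups, and Hoxc4, Hoxc5, Hoxc6 and Hoxc8 have their 4 lowest values in the 4 libraries with liver transcripts.

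Hoxa9 to Hoxa11, Hoxd10 and Hoxd11 moved closely together across lesions. With Hoxa10 on the log2 CPM scale over 41 libraries, Hoxa11 had a Pearson r of 0.935 and a Spearman rho of 0.973, and Hoxa9 had 0.917 and 0.951. The link crossed chromosomes: Hoxd10 had 0.936 and 0.921, and Hoxd11 had 0.897 and 0.879. Hoxd3, Hoxd4 and Hoxc11 followed with r of 0.789, 0.768 and 0.712 (rho of 0.857, 0.823 and 0.716). Hoxd9, the remaining posterior member, followed less closely, with r of 0.686 and rho of 0.668 (adjusted permutation p of 5.4e-05 and 0.00011). The 7 genes named before it each had an adjusted permutation p of 5.4e-05 for r and 6.6e-05 for rho, which rest on 1e-05, the smallest p that 100000 permutations can give, adjusted over the 92 relations computed. Within groups the r of the first 4 was 0.959, 0.942, 0.970 and 0.941, and without the 2 libraries farthest in Hoxa10 it was 0.945, 0.915, 0.923 and 0.872. HOXC members other than Hoxc11 did not share this: r with Hoxa10 was 0.033 for Hoxc10 (rho 0.041, adjusted permutation p of 0.86 and 0.81) and -0.375 for Hoxc8 (rho -0.397, adjusted permutation p of 0.026 and 0.019). Libraries share their total and their tissue make-up, and in bulk RNA fewer cells of a type cannot be told apart from less RNA per cell.

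Taken as shares of all Hox CPM in a library, Hoxa9 to Hoxa11 with Hoxd9 to Hoxd11 made up 10.7% to 65.3% (median 36.5%), and Hoxc4 to Hoxc10 made up 5.52% to 36.2% (median 18.1%). The lowest posterior share was in replicate 1 of the Cre fragments in deficient recipients. The highest was in replicate 4 with 250000 ILC2s, the same library that had the lowest HOXC share. Shares of 1 total are tied to each other, and the HOXC level there was not the lowest. Hoxc4 to Hoxc10 summed to 43.5 CPM in it, against 8.39 to 93.0 CPM (median 59.5) over all libraries. HOXB members made up 13.8% to 41.8% (median 23.8%). In the 4 libraries with little Krt8 the posterior share was 10.7% to 19.7% and the HOXC share 32.9% to 34.9%, against 12.6% to 65.3% and 5.52% to 36.2% in the other 37 libraries.

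In those 4 libraries Acta1 stood at 5780 to 11394 CPM (median 10793), against 30.2 to 9971 CPM (median 4335) in the other 37. Hoxa11 there had a median of 0.980 CPM, against 18.8 CPM in the other 37, Hoxd10 0.951 against 14.02 CPM, and Hoxd11 0.739 against 13.4 CPM. Hoxa10 had a median of 6.88 CPM, against 39.2 CPM, Hoxa9 10.2 against 19.9 CPM and Hoxd9 8.53 against 13.9 CPM. Hoxc6, a thoracic member, stood at 25.2 to 32.4 CPM there (median 25.3), against 3.62 to 34.6 CPM (median 20.9), and Hoxa3 and Hoxa5 had medians of 9.61 and 6.46 CPM, against 9.83 and 7.48 CPM. Lower medians were not limited to posterior members. Hoxb8, Hoxb6, Hoxd3 and Hoxd4 had 2.32, 7.03, 1.34 and 7.28 CPM, against 6.15, 15.0, 2.57 and 13.3 CPM. Hoxa7 and Hoxd8 were higher, like Hoxc6, at 5.28 and 28.1 CPM, against 3.75 and 21.1 CPM. The values overlapped between the 2 sets of libraries for all 30 members described here, and since these 4 libraries were picked by Krt8 after the data were seen, no test was made between the sets.

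HOXC members other than Hoxc11 spanned 9.56-fold (Hoxc6) to 25.95-fold (Hoxc10). Over 41 libraries Hoxc4 spanned 0.923 to 11.5 CPM (median 7.197), Hoxc5 1.26 to 17.2 CPM (median 9.92), Hoxc6 3.62 to 34.6 CPM (median 22.2) and Hoxc8 1.42 to 21.2 CPM (median 8.95). Hoxc9 spanned 0.649 to 7.57 CPM (median 3.80), Hoxc10 0.513 to 13.3 CPM (median 5.65) and Hoxc11 0.0171 to 3.06 CPM (median 0.512). All 7 were lowest in replicate 3 of the wild-type mice given 120000 ILC2s, the library with the most Alb. This was not particular to HOXC: Hoxa2 to Hoxa7, Hoxa9, Hoxb2 to Hoxb7, Hoxb9, Hoxd3, Hoxd4, Hoxd8 and Hoxd9 were lowest there too. The HOXC share in that library was 10.3%, not the lowest (5.52%). The 4 libraries with liver transcripts held the 4 lowest values of Hoxc4, Hoxc5, Hoxc6 and Hoxc8. By group Hoxc6 averaged 27.0 ± 5.82 CPM in floxed controls and 13.8 ± 8.81 CPM in wild-type lesions with 120000 ILC2s (SD, n = 4 and 3), the highest and lowest of the 11 means. The HOXB members Hoxb4, Hoxb5, Hoxb6, Hoxb7 and Hoxb8 were all highest in deficient IL-33 replicate 4, the library with the most Krt8 (245 CPM), at 22.1, 25.8, 38.8, 12.4 and 18.03 CPM.

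To relate Hox levels to tissue content, each gene was fitted on log2 CPM of Krt8 and of Acta1 in 1 model beside the 11 group means, so that the slopes describe lesions within groups. A slope is the log2 change of a gene per doubling of Krt8 or Acta1. With more Krt8, 9 of 30 members passed the test, 3 higher and 6 lower (edgeR quasi-likelihood test, Benjamini-Hochberg adjusted p under 0.05), where 9.96% of all 21249 genes did (5.39% higher, 4.57% lower). The members that rose were posterior or HOXB: Hoxd11 (slope 0.79 ± 0.23 SE, adjusted p = 0.0291), Hoxd10 (0.65 ± 0.18, adjusted p = 0.0185) and Hoxb8 (0.26 ± 0.06, adjusted p = 0.00581). The members that fell were Hoxa7 and 5 of the 7 HOXC members. Hoxa7 fell by 0.23 ± 0.045 (adjusted p = 0.000923), Hoxc8 by 0.23 ± 0.06 (adjusted p = 0.0145), Hoxc5 by 0.21 ± 0.06 (adjusted p = 0.0182), Hoxc4 by 0.20 ± 0.06 (adjusted p = 0.0202), Hoxc9 by 0.19 ± 0.06 (adjusted p = 0.0411) and Hoxc6 by 0.18 ± 0.05 (adjusted p = 0.0104). Hoxa11 (0.68 ± 0.25, adjusted p = 0.0725), Hoxa10 (0.42 ± 0.15, adjusted p = 0.0708), Hoxa9 (0.18 ± 0.10, adjusted p = 0.251) and Hoxd9 (0.11 ± 0.08, adjusted p = 0.449) did not pass. The median slope was 0.04 over the 30 members and 0.0004 over all genes.

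**Figure D3:**
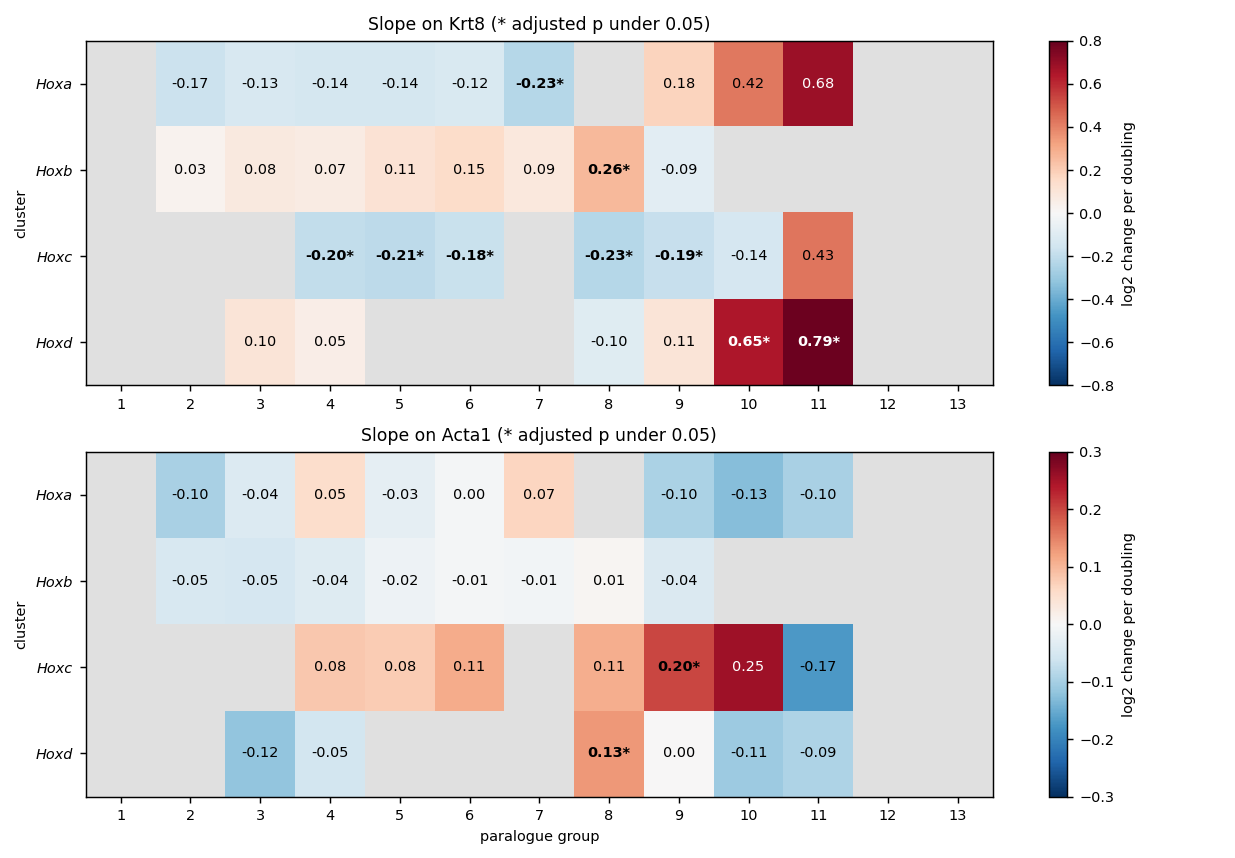
Fitted slope of 30 Hox members on log2 Krt8 (upper grid) and log2 Acta1 (lower grid), as log2 change per doubling, by cluster (rows) and paralogue group (columns), with grey where no value is shown and a star where the adjusted p was under 0.05. On Krt8 the darkest cells are Hoxd11, Hoxa11 and Hoxd10 (0.79, 0.68 and 0.65), and the negative stars lie in HOXC and at Hoxa7.

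The calls of the members that rose depended on few lesions. Without the 4 libraries with Krt8 under 2 CPM, a choice made after the data were seen, no member rose and 10 fell, namely Hoxa3 to Hoxa7, Hoxc4, Hoxc5, Hoxc6, Hoxc8 and Hoxc9, where 10.05% of all genes passed. The slopes of Hoxd11, Hoxd10 and Hoxb8 were then 0.24, 0.23 and 0.22 (adjusted p = 0.494, 0.446 and 0.101), so that Hoxb8 lost its call with a slope close to its 0.26 over all libraries. Without the 2 libraries farthest from the median of Krt8, 0 rose and 7 fell, where 7.17% of all genes passed, and the 3 slopes were 0.52, 0.48 and 0.20 (adjusted p = 0.187, 0.148 and 0.0768). Leaving out floxed-control replicate 3 alone gave 0.56, 0.52 and 0.21 (adjusted p = 0.137, 0.104 and 0.0575), and leaving out replicate 1 of the Cre fragments in deficient recipients gave 0.63 and 0.53 for Hoxd11 and Hoxd10 (adjusted p = 0.0795 and 0.0618). Hoxd11 alone also lost its call without deficient replicate 2 with 120000 ILC2s, PBS-alone replicate 3 or added-PBS replicate 3 (slopes 0.74, 0.74 and 0.75, adjusted p = 0.0513, 0.0638 and 0.0562). Without the 4 libraries with liver transcripts, 11 members rose (Hoxa9 to Hoxa11, Hoxb3 to Hoxb8, Hoxd10 and Hoxd11) and 4 fell (Hoxa7, Hoxc5, Hoxc6 and Hoxc8), while Hoxc4 and Hoxc9 had slopes of -0.14 and -0.15 (adjusted p = 0.054 and 0.0934), and 11.8% of all genes passed. With the mean of the 12 epithelial and of the 16 skeletal muscle markers in place of Krt8 and Acta1, 10 rose (Hoxa10, Hoxa11, Hoxb3 to Hoxb8, Hoxd10 and Hoxd11) and none fell, where 6.82% of all genes passed. Hoxc6 then had a slope of -0.11 (adjusted p = 0.215).

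Over all 41 libraries Hoxd10 had a Pearson r of 0.712 and a Spearman rho of 0.546 with Krt8 (adjusted permutation p of 5.4e-05 and 0.0011), and Hoxd11 0.693 and 0.506 (adjusted permutation p of 5.4e-05 and 0.0025). Within groups these r were 0.719 and 0.742, and without the 2 libraries farthest in Krt8 they were 0.651 and 0.635. Hoxb8, a trunk member, had r of 0.699 and rho of 0.690 (adjusted permutation p of 5.4e-05 and 6.6e-05), and 0.882 without the libraries with liver transcripts. Hoxa7 had r of -0.725 and rho of -0.665, and Hoxc6 -0.691 and -0.656, each with adjusted permutation p of 5.4e-05 and 6.6e-05. Within groups these were -0.787 and -0.713, and without the 2 farthest libraries -0.677 and -0.667.

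**Figure D4:**
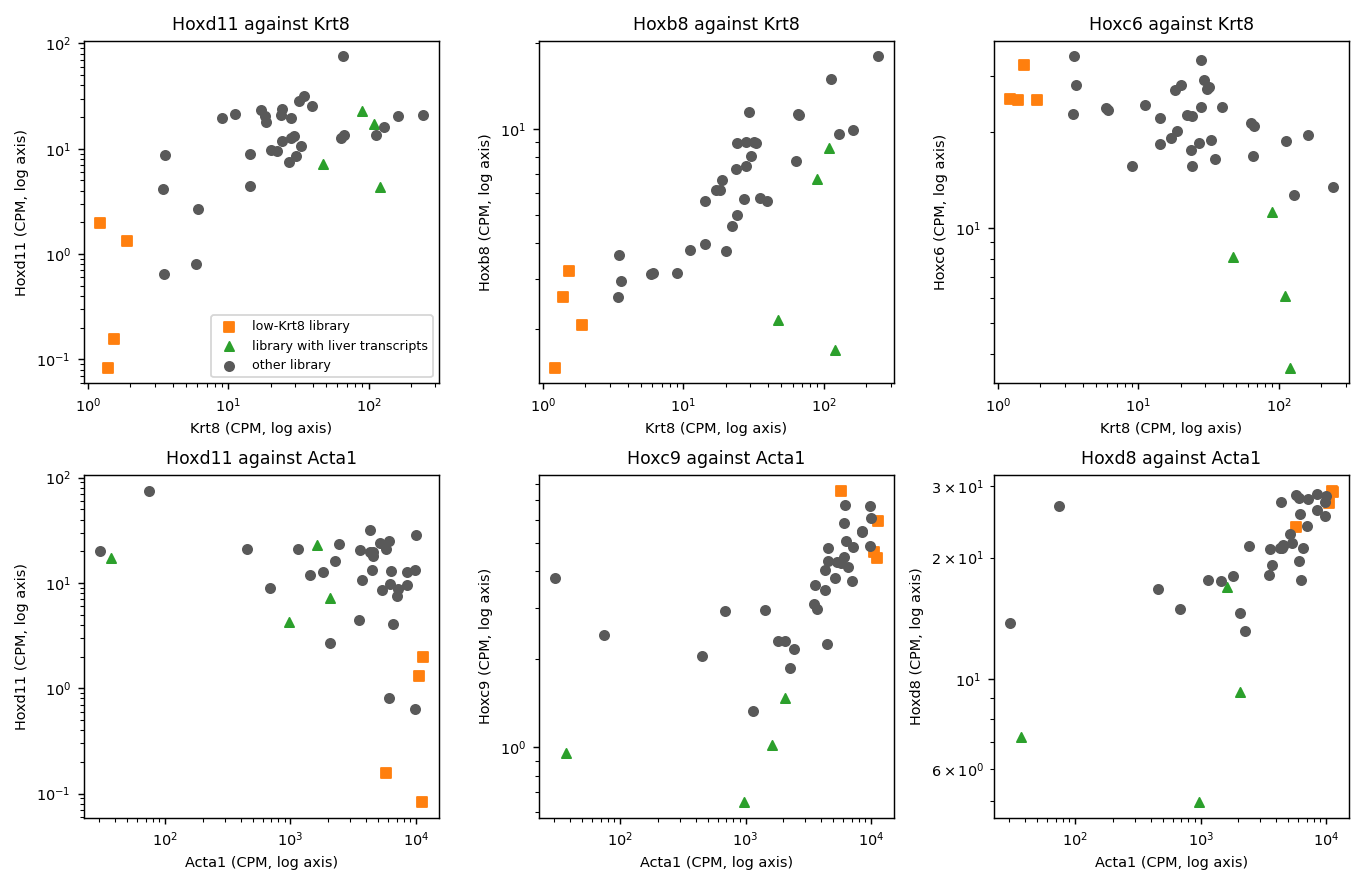
CPM of Hoxd11, Hoxb8 and Hoxc6 against Krt8 (upper row) and of Hoxd11, Hoxc9 and Hoxd8 against Acta1 (lower row), 1 point per library, both axes log, with the 4 libraries with Krt8 under 2 CPM as orange squares and the 4 with liver transcripts as green triangles. Hoxd11 is lowest in the orange libraries (0.0832 to 1.97 CPM), Hoxb8 climbs with Krt8 (r of 0.699, and 0.882 without the green points), and Hoxc9 and Hoxd8 climb with Acta1.

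With more Acta1, 2 of 30 members passed, both higher, where 8.25% of all genes did (6.82% higher, 1.44% lower), so the share of members was near the background. Hoxc9 rose by 0.20 ± 0.05 per doubling (SE, edgeR adjusted p = 0.00367) and Hoxd8 by 0.13 ± 0.03 (adjusted p = 0.013). Hoxc6 had a slope of 0.11 ± 0.04 (adjusted p = 0.0522) and Hoxc10 of 0.25 ± 0.08 (adjusted p = 0.0615). Hoxc9, which helps to set thoracic identity, had r of 0.646 and rho of 0.874 with Acta1, and Hoxd8 0.694 and 0.878 (adjusted permutation p of 5.4e-05 and 6.6e-05 for each). Within groups these r were 0.720 and 0.690, and without the 2 libraries farthest in Acta1 0.731 and 0.617. Without the 4 libraries with little Krt8 Hoxd8 had a slope of 0.12 (adjusted p = 0.0534), and without floxed-control replicate 3 alone 0.12 (adjusted p = 0.0529). Within groups Krt8 and Acta1 themselves had r of -0.463, and of -0.392 without the 4 libraries with liver transcripts, so lesions with more Krt8 tended to hold less Acta1.

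Markers of other cell types moved with Krt8, while outside the skeletal muscle list only Des passed on Acta1. On Krt8 all 12 epithelial markers rose, a count that includes Krt8 itself, whose slope on its own level was fixed in advance. In the same fit 6 of 9 stromal markers fell (Dcn by 0.19, Lum by 0.15, Vim by 0.14 among them). Of 6 endothelial markers 2 fell (Pecam1 by 0.12, Cdh5 by 0.11), and 0 of 9 smooth muscle, 0 of 16 skeletal muscle, 0 of 12 liver, 0 of 8 adipocyte, 0 of 8 leukocyte and 0 of 5 mesothelial markers passed. The median slope of the liver list was 3.29. On Acta1 all 16 skeletal muscle markers rose, a count that likewise includes Acta1 fitted on itself. Of 9 smooth muscle markers 1 (Des) rose, and none of the other marker lists had a member that passed. The part of these cells in the Hox slopes was not tested, beyond the fit with the smooth muscle list as a further covariate, in which 17 members passed on Krt8, 5 higher and 12 lower, where 13.7% of all genes did.

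Regulators other than Hox genes gave the tissue frame. Of 19 measured regulators of the uterus and Müllerian duct, 11 rose with Krt8 and none fell (median slope 0.30). The largest slopes were those of Foxa2 (1.45 ± 0.26, adjusted p = 0.000252), which endometrial glands need, and Pax8 and Pax2 (1.37 ± 0.25 and 1.28 ± 0.23, adjusted p = 0.000474 and 0.000318), factors of duct epithelium. Esr1 and Pgr, the estrogen and progesterone receptors, rose by 0.30 ± 0.08 and 0.60 ± 0.17 (adjusted p = 0.0108 and 0.025). None of the 19 passed with Acta1. Of 14 measured body wall regulators, 9 rose with Acta1 and none fell (median slope 0.30), led by the muscle precursor factors Pax3 (1.41 ± 0.26, adjusted p = 0.000188), Pax7 (1.01 ± 0.06, adjusted p = 5.67e-14) and Lbx1 (0.96 ± 0.13, adjusted p = 1.02e-06). With Krt8, 1 of the 14 rose (Tbx3, by 0.18 ± 0.06) and 5 fell, with Pax3 (-0.63 ± 0.17), Tbx18 (-0.31 ± 0.06) and Shox2 (-0.31 ± 0.07) in front. Several body wall regulators are expressed by muscle itself, and Foxa2, Pax8 and Pax2 by epithelium itself.

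By the likeness of their levels over 41 libraries, the 5 non-member genes closest to Hoxa10 were Hoxa11os, Tcf23, Gm44102, Dchs1 and Nr2f2 (Spearman rho of 0.944, 0.933, 0.922, 0.921 and 0.920). Hoxa11os is transcribed opposite to Hoxa11 and shares 800 bases of exon with it (35.0% of the exons of Hoxa11). No source used here gives the strand setting of the counting, so reads of that pair cannot be told apart. The 5 closest to Hoxc6 were Synpo, C1qtnf9, Sspn, Fry and En1 (rho of 0.760, 0.757, 0.754, 0.741 and 0.737), and on Acta1 Synpo, C1qtnf9, Sspn and Fry rose by 0.08, 0.22, 0.13 and 0.11 per doubling (adjusted p = 0.0255, 3.29e-05, 0.003 and 0.00107).

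Between deficient and Cre-control recipients, with fragments of both genotypes on each side, 11.3% of all genes passed (5.02% higher, 6.29% lower). Of the 30 members described here, 0 passed in edgeR, 0 had an unadjusted p under 0.05 and 0 were called by DESeq2. Hoxa10 ran from 3.60 to 94.3 CPM (median 35.9) in the 8 lesions of deficient recipients, against 6.21 to 53.5 CPM (median 30.2) in the 8 lesions of Cre-control recipients. The 2 sets overlapped for all 30, and did not overlap for 0.824% of all genes.

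Markers of other cell types did move in this comparison: 3 of 8 adipocyte markers rose (Lep, Retn and Adipoq), 3 of 6 endothelial markers rose (Kdr, Tek and Cdh5) and Vwf fell. Of 5 mesothelial markers Lrrn4 fell, and their summed level ran from 25.8 to 38.2 CPM in deficient recipients, against 49.8 to 127 CPM in Cre-control recipients. The adipocyte sum ran from 67.0 to 655 CPM (median 94.9) in deficient recipients, against 58.4 to 244 CPM (median 87.9) in Cre-control recipients. Its highest value was that of deficient IL-33 replicate 3. The endothelial sum ran from 515 to 851 CPM (median 692), against 531 to 897 CPM (median 785). Its median was lower though 3 of its markers rose, while the adipocyte median was slightly higher, as were the 3 adipocyte markers.

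None of the 30 members passed between deficient and Cre-control fragments, where 0.00471% of all genes did, and 0 had an unadjusted p under 0.05. None passed between deficient lesions and the mean of the 3 competent groups under IL-33, where 11% of all genes did (6.24% higher, 4.72% lower). Here 3 had an unadjusted p under 0.05: Hoxb7 (0.67 ± 0.24, adjusted p = 0.0657), Hoxa2 (-0.78 ± 0.31, adjusted p = 0.101) and Hoxa4 (-0.66 ± 0.30, adjusted p = 0.154), while DESeq2 called Hoxb7 higher. Hoxa10 ran from 23.8 to 49.0 CPM (median 34.1) in the 4 deficient lesions, against 6.28 to 81.0 CPM (median 38.4) in the 12 competent lesions. These comparisons share the deficient IL-33 libraries with the recipient comparison.

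IL-33 against PBS alone in deficient mice called no member, where 0.00941% of all genes passed, with 2 unadjusted p under 0.05 (Hoxa2, -1.21 ± 0.36, adjusted p = 0.62, and Hoxa3, -0.64 ± 0.29, adjusted p = 0.661). Hoxa10 ran from 23.8 to 49.0 CPM with IL-33, against 28.4 to 105 CPM with PBS alone. With 250000 ILC2s against added PBS no member and 0% of all genes passed. The 3 members with an unadjusted p under 0.05 were Hoxb8 (1.21 ± 0.43, adjusted p = 0.567), Hoxb3 (0.60 ± 0.27, adjusted p = 0.57) and Hoxb7 (0.63 ± 0.30, adjusted p = 0.571), beside Krt8 of 3.48 to 65.6 CPM with ILC2s, against 1.21 to 11.2 CPM with added PBS. Hoxa10 in these groups was at 30.0, 12.4, 8.47 and 177 CPM with ILC2s, against 13.8, 7.47, 51.6 and 45.4 CPM with added PBS. With 120000 ILC2s neither deficient nor wild-type mice gave a called member, a called gene (0% of all genes) or a member with an unadjusted p under 0.05. DESeq2 called no member in these 4 comparisons or between fragments.

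**Figure D5:**
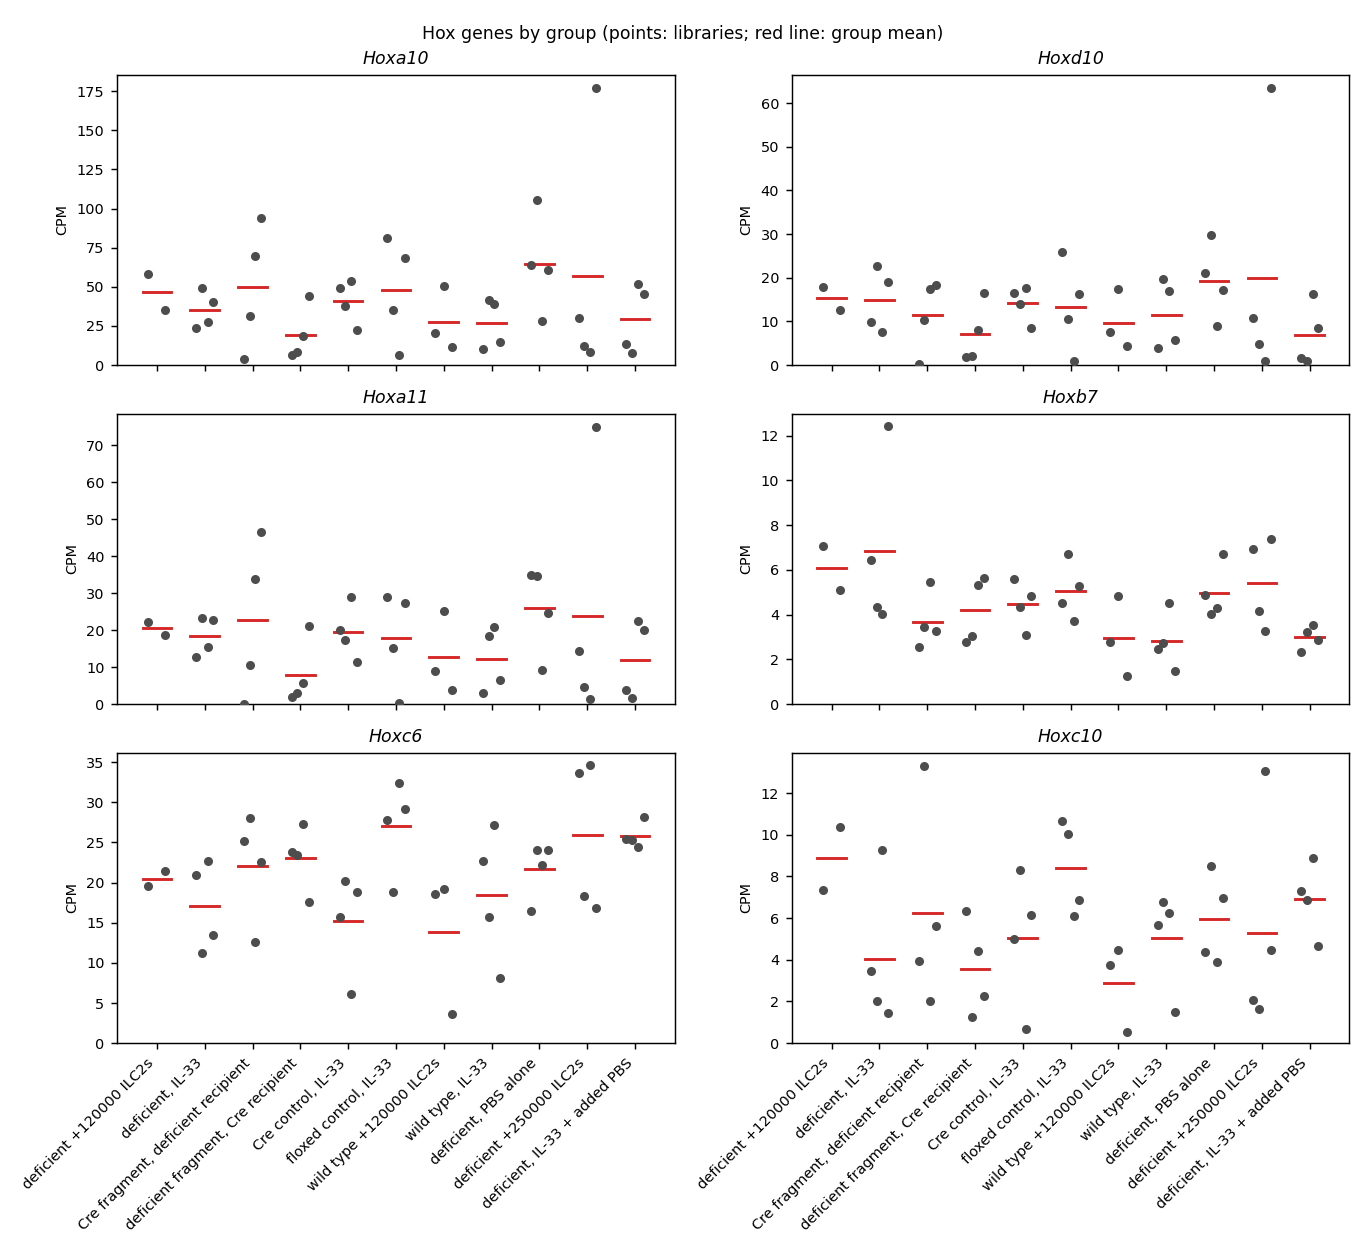
CPM of 6 Hox members in each library (points) of the 11 groups with the group mean (red line). The posterior members Hoxa10, Hoxa11 and Hoxd10 spread widely within groups, with 1 high library (177, 74.9 and 63.4 CPM) among those with 250000 ILC2s.

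By group, the highest and lowest means of Hoxa10 were 64.6 ± 31.5 CPM in deficient lesions with PBS alone and 19.2 ± 17.4 CPM in deficient fragments in Cre recipients (SD, n = 4 each). Hoxa11 had 25.9 ± 12.0 and 7.99 ± 8.97 CPM in the same groups, and Hoxa9 32.6 ± 17.1 and 12.4 ± 7.17 CPM. Hoxd10 was lowest with added PBS (6.82 ± 7.14 CPM) and highest with 250000 ILC2s (19.96 ± 29.2 CPM, n = 4 each), but without replicate 4 the mean with 250000 ILC2s was 5.49 ± 4.98 CPM (SD, n = 3), below the added-PBS mean. Hoxd9 was lowest in deficient fragments in Cre recipients (9.83 ± 5.07 CPM) and highest in floxed controls (19.8 ± 8.80 CPM, n = 4 each). Neighbours in each of these orders differed by less than the larger of their SDs. No member passed in the test of whether the recipient effect differed with the genotype of the fragment, where 88 of all genes did, or of whether the effect of 120000 ILC2s differed between deficient and wild-type mice, where 0 did.

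Partners and neighbours of the Hox genes were tested in the same fits. Of 9 PBX, MEIS and related homeodomain cofactors, none passed on Krt8, and 1 passed on Acta1 (Pbx2, -0.03 ± 0.01, adjusted p = 0.0266). Of 9 measured noncoding RNAs of the clusters none passed in any comparison or slope, with Hoxa11os at 0.57 ± 0.21 on Krt8 (adjusted p = 0.0817). Hoxa11os nonetheless spanned 0.0624 to 19.6 CPM over the 41 libraries, with a median of 0.470 CPM in the 4 libraries with little Krt8, against 5.68 CPM in the other 37, and Hoxb5os spanned 0.0208 to 1.63 CPM. Of 11 Polycomb and trithorax genes that keep Hox genes silent or active, 1 rose with Krt8 (Cbx2, 0.10 ± 0.03, adjusted p = 0.0306), and between recipients Kmt2d fell by 0.25 ± 0.07 (adjusted p = 0.0187). Among the uterine regulators Lif, a cytokine of implantation, was higher in deficient recipients (1.17 ± 0.34, adjusted p = 0.0234). Hoxb3 shares 2250 bases (52.9% of its exons) with Hoxb3os, and Hoxd3 shares 2225 bases (53.1%) with Gm28230. Hoxd4 shares 1154 bases (39.1%) with Gm28230 and 388 bases (13.2%) with Hoxd3. Hoxb2 shares 953 bases (27.3%) with Hoxb3os, and Hoxa7 586 bases (20.4%) with Hoxaas3. Smaller overlaps touch further members, so the levels of members that share exons are uncertain.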

How the data were processed

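Bulk RNA-seq of 41 lesions was analysed from the authors' deposited table of raw counts per gene, which holds 21249 genes and whose lowest gene total is 411. Per the submitters' processing notes Trimmomatic, STAR, HTSeq, edgeR and limma were used with the GRCm38 build. Their versions, settings and strand mode are not given in the sources used here. CPM (counts scaled to the library total) was computed here from the deposited counts and plain library totals (28884926 to 70526624), and a member had as few as 1 count in a library. Counts were tested with edgeR 4.0.16 (R 4.3.3, TMM, robust) by its quasi-likelihood test, two-sided, with a mean for each of the 11 groups, adjusted over all genes with a threshold of 0.05. Slopes used log2 CPM with a prior count of 2. Correlations used 100000 permutations. The fits were tested on simulated data. DESeq2 1.42.0, RLE scaling, low-count filters, other covariates and left-out libraries were alternatives.

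Values were printed by library or group for posterior HOXA and HOXD and for HOXC members, in full for those past the threshold, with up to 3 genes per other list and the 5 genes most like Hoxa10 and Hoxc6. Esr1, Pgr and unadjusted results were named outside that rule, after their values were seen. Each SE is the fold change on the log2 scale over the square root of its F. Values of 1 of the 31 members are not reported here, and counts of members called are over the other 30. The members and lists were chosen with earlier results of these data known. All columns were mapped to samples by name.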

Additional observations from a re-analysis of the deposited data

Results flagged for a closer look

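Of 117 sets of 4 libraries tested (13 Hox members in 9 groups), 8 held a single library far from the other 3 of its group. For normally distributed values chance alone passes this cut-off about 1 time in 20, and 8 of 117 is not far above that. The cut-off was applied to CPM without a log, so that rate need not hold. Of the 8 flags, 5 came from 1 library and are not independent. In replicate 4 of the deficient mice given 250000 ILC2s, 5 members stood far above the other 3 libraries: Hoxa9 at 80.0 CPM (others 9.94 to 15.7 CPM), Hoxa10 at 177 CPM (others 8.47 to 30.0 CPM), Hoxd10 at 63.4 CPM (others 0.928 to 10.8 CPM), Hoxd11 at 75.5 CPM (others 0.643 to 12.8 CPM) and Hoxc11 at 1.97 CPM (others 0.0476 to 0.129 CPM). Hoxc11 was also far above its group in replicate 4 of the deficient fragments in Cre recipients, at 3.06 CPM (others 0.0519 to 0.146 CPM), and in replicate 3 with added PBS, at 1.56 CPM (others 0.165 to 0.328 CPM). Hoxc5 was far below its group in wild-type replicate 4, at 2.82 CPM (others 9.45 to 10.7 CPM), a library with 33200 CPM of Alb.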

How the results depend on the processing

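Of the 9 counts of members called, those of the recipient comparison (0), the fragment comparison (0), IL-33 against PBS (0) and the 3 ILC2 transfers (0 each) were the same in every alternative run and with each library left out. Between deficient and competent lesions 0 members (11% of all genes) became 1 (Hoxb7) with DESeq2 and 1 (Hoxb7) without the libraries with liver transcripts. With 1 library left out the count was 0 to 3. It was 1 without wild-type replicate 3 or deficient replicate 2, 2 without floxed-control replicate 2, and 3 without deficient replicate 3. On Krt8, 9 members (9.96% of all genes) became 14 with DESeq2 (14.02% of all genes), 17 with Krt8 as the only covariate (25.7%), 17 with smooth muscle added (13.7%), 17 without group means (18.9%), 15 without the libraries with liver transcripts (11.8%) and 7 without the 2 libraries farthest from the median of Krt8 (7.17%), and 6 to 13 with 1 library left out. On Acta1, 2 members (8.25% of all genes) became 4 with DESeq2 (10.53%), 10 with Acta1 alone (19.5%), 4 with smooth muscle (9.81%), 4 without the libraries with liver transcripts (14.3%) and 1 without the libraries with little Krt8 (7.80%), and 1 to 4 with 1 library left out (1 without floxed-control replicate 3, and 4 without wild-type replicate 4, replicate 3 of the wild-type mice with 120000 ILC2s, either deficient replicate with 120000 ILC2s, replicate 3 of the Cre fragments in deficient recipients, or replicate 2 with 250000 ILC2s). The cause was not tested. Where no share of all genes stands beside a count here, the count is not read as a result about Hox members. None of the member slopes called in the main fit (9 on Krt8 and 2 on Acta1) changed sign in these runs. For the group comparisons only counts were followed, which have no sign. Fits with the replicate number as a block gave 9 members on Krt8, with Hoxa2 called in place of Hoxc9, 2 on Acta1 and 0 between recipients. The numbers showed no general pairing of the lesions. Over 191 pairs with the same number the median correlation of deviations was -0.000967 (range -0.634 to 0.833), against 0.0105 for other numbers. Of the 191 pairs 65 were over 0.1, and pairing between particular groups was not tested. For 11 of 41 libraries, the replicate number with the highest mean correlation over the other groups was their own. Hoxc9 on Krt8 lost its call without any 1 of 11 libraries. Hoxc11 rests on few counts (down to 1 in a library), which limits what can be read from it.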
